A study of Mus musculus with 19 samples.

Results

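Pericentral Wnt and beta-catenin target genes were examined in livers of mice with hepatocyte deletion of Raly (L-RalyKO), an RNA-binding hnRNP, and in their controls. The group was defined by name as 10 gene symbols, Glul, Oat, Axin2, Lgr5, Tbx3, Rnf43, Znrf3, Nkd1, Lect2 and Rhbg. All 10 were found among the 24054 symbols of the deposited expression table, and all 10 reached the mean value of 1 required for testing, as did 11580 symbols in all. The values used here come from RNA of 3 L-RalyKO and 3 control livers of C57BL/6 mice on a chow diet. All mice carried floxed Raly alleles (Raly flox/flox), the controls included, although the labels call the controls wild type. L-RalyKO mice had received AAV8.TBG.Cre, and control mice AAV8.TBG.GFP, the TBG promoter being active in hepatocytes and not in the other cells of the liver. Tissue was taken 4 weeks after the virus. The mice were male unless stated otherwise in the study's methods, and their age was not given in the sources used here. RNA came from whole liver, so endothelial, Kupffer, stellate and biliary cells, in which Raly was not deleted, were part of each sample. In such samples fewer cells of a type and less RNA per cell cannot be told apart, and the position of a transcript within the lobule was not measured. The replicates were labelled as separate samples and were taken as separate mice.

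Wnt ligands bind Frizzled and LRP receptors, which stops the destruction complex from degrading beta-catenin, and beta-catenin then acts with TCF factors to switch on target genes. In the liver, endothelial cells of the central vein secrete Wnt ligands and the R-spondin RSPO3, which keep the neighbouring pericentral hepatocytes in a gene programme of glutamine synthesis and drug metabolism, while periportal hepatocytes make urea and glucose. R-spondins bind LGR receptors and remove the ubiquitin ligases RNF43 and ZNRF3 that would otherwise take Frizzled receptors off the cell surface.

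Values are read counts per gene scaled to library depth (CPM, with a between-library factor) and are given in the order of replicates 1, 2 and 3. The libraries held 28302983 to 38052705 reads in genes, and 3 reads were worth 0.0789 to 0.105 in value. Raly was at 6.34, 6.61 and 7.39 in the L-RalyKO livers and at 50.1, 48.6 and 46.8 in the controls, or 14.0% of the control mean. The groups separated on the first principal component, which held 50.7% of the variance, and controls 2 and 3 lay at opposite ends of the second. The fall in Raly was called by limma on log2(value + 1) with Benjamini-Hochberg adjustment over all genes tested (log2 fold change -2.67, adjusted p = 6.92e-07). Fold changes below are L-RalyKO minus control from that fit unless another tool is named, and a gene is described as higher, lower or changed by test when its adjusted p was under 0.05.

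Among the 10 targets, Tbx3 and Lgr5 fell and none rose. This was 2 of 10 called lower, where 3.19% of all genes tested were called lower and 6.55% were called in either direction. The 3 L-RalyKO livers lay below all 3 controls in 4 of 10 targets, Tbx3, Lgr5, Rnf43 and Nkd1, against 13.7% of all genes tested, and in no target did they lie above the controls. The same 2 genes were called by edgeR, DESeq2 and limma voom on the recovered reads, and none of these tools called a target higher. In the other 6 targets the groups overlapped. The median log2 fold change of the 10 targets was -0.11, against 0.00 over all genes tested, and 7 of the 10 means were lower in L-RalyKO. Counting either direction, the groups did not overlap in 28.1% of all genes tested. An unadjusted p under 0.05 by limma was found for 4 targets, all lower in L-RalyKO. Over all genes tested the share was 10.9% in the lower direction and 22.7% in either direction.

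**Figure D1:**
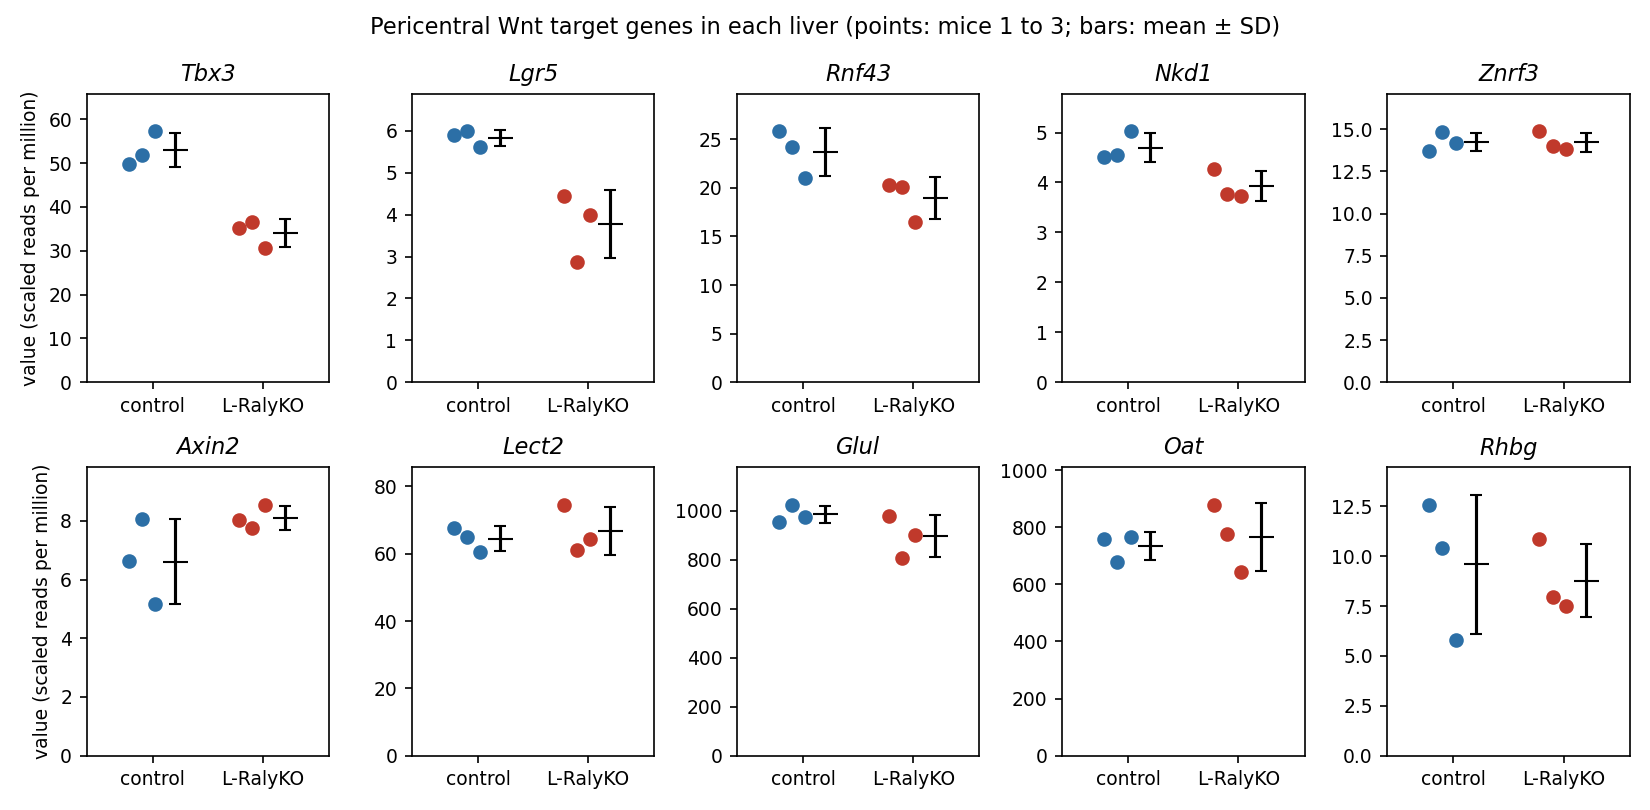
Expression of the 10 pericentral Wnt target genes in each liver, with the value in scaled reads (CPM) on the vertical axis (starting at 0), control livers in blue, L-RalyKO livers in red and bars for mean ± SD (n = 3 per group). The red points of Tbx3, Lgr5, Rnf43 and Nkd1 all lie below the blue ones, whereas those of the other 6 genes overlap them.

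Tbx3, a T-box transcriptional repressor, was at 35.2, 36.6 and 30.5 in L-RalyKO livers and at 49.7, 51.8 and 57.3 in controls. The highest L-RalyKO liver was well below the lowest control. The means were 34.1 ± 3.18 and 52.9 ± 3.91 (SD, n = 3 per group), so that L-RalyKO livers held 64.5% of the control level. The log2 fold change was -0.62 (SE 0.0803, 95% interval -0.80 to -0.44), with an adjusted p of 0.00429 by limma. The call held under 16 of 16 alternative settings, where the adjusted p ranged from 8.35e-10 to 0.0192 and the log2 fold change from -0.67 to -0.54. Tbx3 rested on 1161 to 2119 reads per liver.

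Lgr5, the R-spondin receptor that marks pericentral hepatocytes and intestinal stem cells, was at 4.45, 2.87 and 4.0 in L-RalyKO livers and at 5.90, 6.00 and 5.62 in controls. The controls were close to each other and all above the L-RalyKO livers, of which replicate 2 was lowest. The means were 3.77 ± 0.813 and 5.84 ± 0.194 (SD, n = 3 per group), 64.6% of control. The log2 fold change was -0.53 (SE 0.127, 95% interval -0.82 to -0.24), with an adjusted p of 0.0441 by limma. This call was near the threshold and held under 7 of 15 alternative settings, while the log2 fold change stayed between -0.65 and -0.39. With limma, the call was lost when any 1 liver other than L-RalyKO replicate 1 was left out, with adjusted p from 0.0719 to 0.123, and without L-RalyKO replicate 1 the adjusted p was 0.047. The gene rested on 99 to 208 reads per liver.

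Endothelial cells supply the ligands, and the summed value of their 13 listed markers was 320, 248 and 274 in L-RalyKO livers 1, 2 and 3 and 293 to 299 in controls. L-RalyKO replicates 2 and 3 lay below every control and replicate 1 above. The sums ran in the same order as Lgr5 among the L-RalyKO livers and in the reverse order among the controls. The list includes the ligands Rspo3, Wnt2 and Wnt9b, which are described again below. By limma, edgeR or DESeq2 0 of the 12 markers tested passed the test. By limma 2, Rspo3 among them, were lower at an unadjusted p under 0.05, where 10.9% of all genes tested were. The part of the endothelial markers in the difference of Lgr5 was not tested.

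None of the feedback genes Rnf43, Znrf3, Nkd1 and Axin2 passed the test by limma, edgeR or DESeq2. By limma 2 of them, Rnf43 and Nkd1, were lower at an unadjusted p under 0.05, where 10.9% of all genes tested were. Rnf43, a ubiquitin ligase that removes Frizzled receptors, was at 20.3, 20.1 and 16.5 in L-RalyKO livers and at 25.8, 24.3 and 21.0 in controls. All L-RalyKO livers were below all controls, at 80.1% of the control mean (19.0 ± 2.16 against 23.7 ± 2.48, SD, n = 3 per group). The difference did not pass the test (log2 fold change -0.31, 95% interval -0.53 to -0.08, limma adjusted p = 0.111). Rnf43 passed under 1 of 16 alternative settings, limma with a replicate block (adjusted p = 0.0356). Znrf3, its close relative with the same role, was at 14.9, 14.0 and 13.8 in L-RalyKO livers and at 13.7, 14.8 and 14.2 in controls. Its groups overlapped fully, with a 95% interval of the log2 fold change from -0.15 to 0.14 (limma adjusted p = 0.987).

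Nkd1, which binds Dishevelled and dampens the pathway, was at 4.28, 3.77 and 3.74 in L-RalyKO livers and at 4.50, 4.56 and 5.03 in controls. The groups did not overlap, but the gap between them was small and the mean stood at 83.6% of control. The difference did not pass the test (log2 fold change -0.21, 95% interval -0.41 to -0.01, limma adjusted p = 0.208), and it passed under none of 15 alternative settings. The gene had 130 to 186 reads per liver.

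Axin2, the scaffold of the destruction complex and a widely used readout of beta-catenin activity, was at 8.03, 7.75 and 8.55 in L-RalyKO livers and at 6.62, 8.06 and 5.16 in controls. The L-RalyKO livers were close together and the controls wide apart, with control 2 inside the L-RalyKO range. The means were 8.11 ± 0.409 and 6.62 ± 1.45 (SD, n = 3 per group), a difference that did not pass the test (log2 fold change 0.28, 95% interval -0.02 to 0.57, limma adjusted p = 0.258). Without control 3, the lowest, the log2 fold change was 0.13, and without control 2 it was 0.41.

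**Figure D2:**
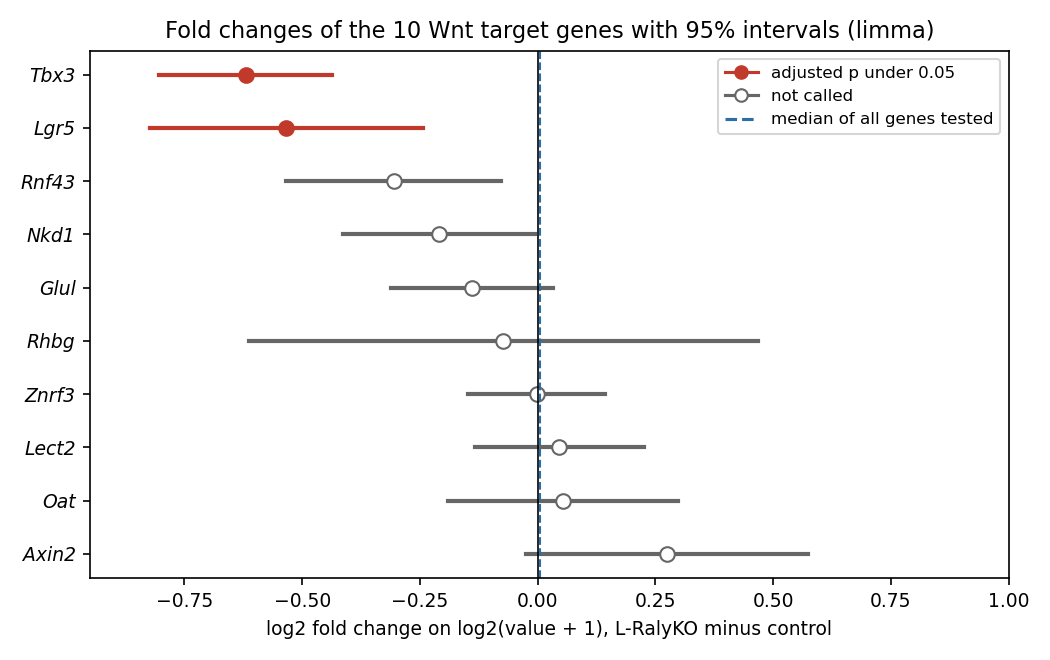
Log2 fold change of each of the 10 targets on log2(value + 1), L-RalyKO minus control, with 95% intervals from limma, filled red where the adjusted p was under 0.05 and open grey otherwise, and a dashed line at the median of all genes tested. Tbx3 and Lgr5, at 64.5% and 64.6% of control, lie at -0.62 and -0.53 on this scale, and the interval of Axin2, the highest at 0.28, reaches below 0.

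The metabolic targets were abundant and none passed the test. Glul, glutamine synthetase, which takes up ammonia in the innermost hepatocytes around the central vein, was at 980, 807 and 903 in L-RalyKO livers and at 955, 1025 and 975 in controls. L-RalyKO replicate 1 lay within the control range and the other two below it. The means were 897 ± 86.8 and 985 ± 35.9 (SD, n = 3 per group), with a log2 fold change of -0.14 (95% interval -0.31 to 0.03, limma adjusted p = 0.322). With each liver left out, the log2 fold change ran from -0.21 to -0.065. Glul rested on 27818 to 36056 reads per liver.

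Oat, ornithine aminotransferase, which feeds glutamate to glutamine synthesis, was at 879, 776 and 644 in L-RalyKO livers and at 758, 677 and 764 in controls. The L-RalyKO livers spanned more than the whole control range. The log2 fold change was 0.05 (95% interval -0.19 to 0.30, limma adjusted p = 0.819). Lect2, a secreted chemotactic protein of hepatocytes, had a log2 fold change of 0.05 (95% interval -0.13 to 0.23, limma adjusted p = 0.783), with values of 61.1 to 74.6 in L-RalyKO livers and 60.5 to 67.7 in controls.

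Rhbg, a membrane ammonia transporter, was the least precise of the 10. It was at 10.8, 7.95 and 7.53 in L-RalyKO livers and at 12.6, 10.4 and 5.79 in controls. The controls alone spanned more than the L-RalyKO livers did. The log2 fold change was -0.07 with a 95% interval from -0.61 to 0.47 (limma adjusted p = 0.896). A change as large as that of Tbx3 or Lgr5 in the upward direction lay outside this interval, and one as large as that of Lgr5 downward lay inside it.

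Exact two-sided permutation tests of single genes could not go below p = 0.1 with 3 livers against 3, and this was the value for each of Tbx3, Lgr5, Rnf43 and Nkd1. For Glul and Axin2 the exact permutation p was 0.3.

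The targets differed widely in level when values were divided by the length of their exons in kilobases. In controls Oat was highest at 340 per kilobase (range 314 to 355 over 3 livers), then Glul at 296 (287 to 308) and Lect2 at 67.2 (63.1 to 70.6). The transcription factor Tbx3 followed at 9.87 (9.27 to 10.7), and then Rhbg at 4.22 (2.55 to 5.54) and Rnf43 at 3.61 (3.2 to 3.94), whose ranges overlapped. Below them lay Znrf3 at 1.81 (1.74 to 1.88), then Axin2 at 1.2 (0.938 to 1.46) and Nkd1 at 1.05 (1.01 to 1.13), whose ranges also overlapped, and last Lgr5 at 0.569 (0.548 to 0.584). The metabolic enzymes Oat and Glul were thus the most abundant and the receptor Lgr5 the least. The genes that fell by test, Tbx3 and Lgr5, ranked 4 and 10 among the 10 targets. The order of the means per kilobase was the same in L-RalyKO livers, from Oat at 356 to Lgr5 at 0.368.

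In the NCBIM37 (mm9) annotation the genes lie on 8 chromosomes. Tbx3 (ENSMUSG00000018604.11) is at chr5:120120678-120134733 on the plus strand and Lgr5 (ENSMUSG00000020140.9) at chr10:114887367-115024836 on the minus strand. Rnf43 (ENSMUSG00000034177.8) is at chr11:87476224-87549041 and Nkd1 (ENSMUSG00000031661.5) at chr8:91045243-91118786, both on the plus strand. Rnf43, Znrf3 and Axin2 share chromosome 11, with other genes between them. Exons of Glul, Axin2 and Tbx3 overlap exons of a neighbour on the opposite strand over 67, 209 and 115 bases, and Rhbg shares 145 bases with a neighbour on the same strand. The library kit keeps strand, but whether the counting used it was not given in the sources used here, so reads in those stretches cannot be assigned with certainty.

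Promoter sequences, the 250 bases before a start in RefSeq on GRCm38.p6, were read for the 6 targets that had one in the table, Glul, Oat, Axin2, Rnf43, Nkd1 and Lect2 (7 promoters, 2 of them of Rnf43). They were searched on both strands for the TCF motifs CTTTGAT and CTTTGTT, which on the other strand read ATCAAAG and AACAAAG. A motif was present in 1 of the 7, that of Lect2, and in 8.06% of 32851 promoters of the same length. The promoter of Lect2 is shown for that match, and those of Nkd1 and of Rnf43 (the upstream one) because these are the targets with a table entry whose groups did not overlap. Each reads in the direction of its gene up to the base before the start, from chr13:56548539-56548788 (minus strand), chr8:88527383-88527632 (plus strand) and chr11:87662837-87663086 (plus strand), and capitals mark the motif.
Lect2: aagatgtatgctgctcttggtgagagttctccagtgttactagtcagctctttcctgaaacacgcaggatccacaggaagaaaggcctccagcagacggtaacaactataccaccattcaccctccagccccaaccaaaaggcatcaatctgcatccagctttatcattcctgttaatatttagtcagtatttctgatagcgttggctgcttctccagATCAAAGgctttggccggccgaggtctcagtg
Nkd1: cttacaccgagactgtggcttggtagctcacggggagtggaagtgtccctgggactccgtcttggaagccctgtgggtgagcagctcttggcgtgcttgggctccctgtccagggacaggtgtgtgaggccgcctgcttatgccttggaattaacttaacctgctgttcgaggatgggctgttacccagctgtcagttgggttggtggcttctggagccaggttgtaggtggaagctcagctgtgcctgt
Rnf43: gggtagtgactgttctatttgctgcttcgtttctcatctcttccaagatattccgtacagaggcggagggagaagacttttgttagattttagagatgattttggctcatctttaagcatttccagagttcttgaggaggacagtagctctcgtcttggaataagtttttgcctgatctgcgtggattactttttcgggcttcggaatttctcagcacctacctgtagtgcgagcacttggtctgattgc
The capitals in Lect2 begin 32 bases before the start. Lect2, the gene with the match, had overlapping groups, while Nkd1 and Rnf43, with no match in this window, had lower values in every L-RalyKO liver. A match describes letters only and is not a binding site.

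The rest of the pathway was followed through lists of ligands, receptors, inhibitors, destruction complex and transcription factors, together with lists of pericentral, periportal and ammonia genes. Of 148 genes listed, 118 were tested, and 6 were higher and 4 lower by limma, where 3.36% of all genes tested were higher and 3.19% lower. These counts turned on single livers. The 6 became 3 without L-RalyKO replicate 1 or without control 1, and 17 without control 3, and the 4 became 2 without L-RalyKO replicate 1 or 2 or without control 1 or 2.

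At the level of ligands, 0 of 7 tested genes passed the test by limma, edgeR or DESeq2. By limma 1 had an unadjusted p under 0.05, in the lower direction, against 10.9% of all genes tested. Rspo3, the R-spondin of the central vein, was at 4.30, 3.77 and 4.05 in L-RalyKO livers and at 5.51, 5.37 and 5.16 in controls. All 3 L-RalyKO livers were below all controls, with a log2 fold change of -0.33 that fell just short of the threshold (limma adjusted p = 0.0503) and passed under 2 of the alternatives, total count scaling and limma without an intensity trend. Wnt2, a ligand of sinusoidal endothelium, was at 2.30, 1.89 and 2.37 in L-RalyKO livers and at 2.38, 2.81 and 1.68 in controls, and the groups overlapped (limma adjusted p = 0.921). Wnt9b, an endothelial ligand too low to be tested, was at 0.783 to 1.45 in L-RalyKO livers and 0.514 to 1.10 in controls.

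Among receptors, 1 of 11 tested genes rose and 1 fell by limma and by edgeR, where limma called 3.36% of all genes tested higher and 3.19% lower. At adjusted p under 0.05 DESeq2 called 3 higher and 1 lower, and its lower gene was not Fzd1. An unadjusted p under 0.05 by limma was found for 4 higher and 3 lower, against 11.8% and 10.9% of all genes tested. Fzd5, a Frizzled receptor, was at 15.0, 12.2 and 12.9 in L-RalyKO livers and at 7.03, 8.52 and 8.19 in controls, with no overlap. It rose by 0.69 on the log2 scale (SE 0.0976, limma adjusted p = 0.00641) and was called under 16 of 16 alternatives. Fzd1 was at 10.5, 10.3 and 10.3 in L-RalyKO livers and at 12.9, 13.0 and 12.3 in controls, a log2 fold change of -0.27 (limma adjusted p = 0.0382) called under 8 of 16. Lgr4, the R-spondin receptor found throughout the lobule, was at 69.8, 64.2 and 64.0 in L-RalyKO livers and at 50.1, 52.3 and 60.9 in controls. Its L-RalyKO livers were all above the controls, the opposite side from Lgr5, but the difference did not pass the test by limma (log2 fold change 0.28, adjusted p = 0.0694) and passed with DESeq2.

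The destruction complex list had 17 tested genes, of which 0 passed the test by limma, edgeR or DESeq2. By limma 4 had an unadjusted p under 0.05, 3 higher and 1 lower, against 22.7% of all genes tested. Ctnnb1, which encodes beta-catenin itself, was at 206, 194 and 205 in L-RalyKO livers and at 193, 198 and 204 in controls. The groups overlapped, and the 95% interval of its log2 fold change ran from -0.08 to 0.13 (limma adjusted p = 0.811). Apc, the large scaffold of the complex, had a log2 fold change of -0.06 (limma adjusted p = 0.642). The transcript says nothing of the amount of beta-catenin protein, which is set by degradation.

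Of 14 tested TCF factors and coactivators, 2 fell and 0 rose by limma, edgeR and DESeq2. By limma 3.19% of all genes tested were lower and 3.36% higher. An unadjusted p under 0.05 by limma was found for 3 lower and 0 higher, against 10.9% and 11.8% of all genes tested. The median log2 fold change of the list was 0.05. Tcf7l2, the main TCF factor of hepatocytes, was at 9.39, 9.52 and 10.1 in L-RalyKO livers and at 12.9, 13.8 and 13.9 in controls. The groups were far apart relative to their spread (9.67 ± 0.379 against 13.5 ± 0.524, SD, n = 3 per group), with a log2 fold change of -0.45 (SE 0.0666, limma adjusted p = 0.00783). Tle3, a Groucho corepressor that TCF factors recruit, was at 11.9, 12.2 and 12.2 in L-RalyKO livers and at 23.1, 21.0 and 18.8 in controls, a log2 fold change of -0.74 (SE 0.0791, limma adjusted p = 0.00187). Both were called under 16 of 16 alternatives.

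Secreted antagonists and other feedback genes had 5 tested members, and 0 passed the test by limma, edgeR or DESeq2. By limma 1 had an unadjusted p under 0.05, in the higher direction, against 11.8% of all genes tested. Notum, a Wnt deacylase, had a log2 fold change of 0.09 (limma adjusted p = 0.541). Sp5, a transcription factor induced by Wnt signalling and named here after its values were seen, was higher in all 3 L-RalyKO livers (2.44, 2.12 and 1.95 against 1.82, 1.61 and 1.59) on only 46 to 84 reads. Its difference did not pass the test (limma adjusted p = 0.218).

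**Figure D3:**
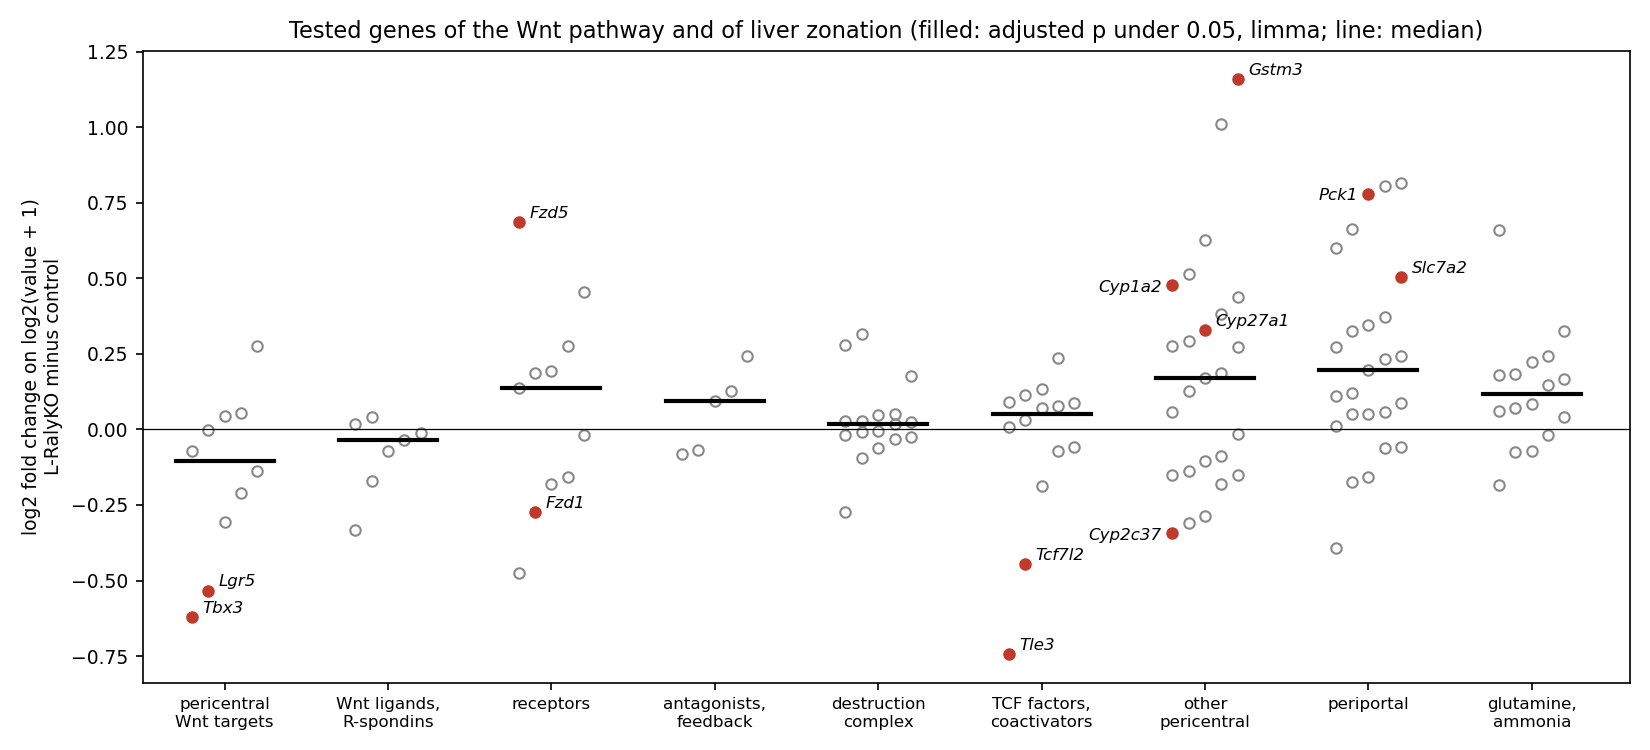
Log2 fold change on log2(value + 1), L-RalyKO minus control, of every tested gene in the 10 targets and in 8 lists of Wnt pathway, zonation and ammonia genes, filled red where limma's adjusted p was under 0.05, with a bar at each median. The medians of the pericentral targets and of the ligands lie below 0 at -0.11 and -0.03, and the medians of the other 7 lists lie above it.

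Of 25 other pericentral genes tested, 3 rose and 1 fell by limma, with a median log2 fold change of 0.17. An unadjusted p under 0.05 by limma was found for 10 higher and 3 lower, against 11.8% and 10.9% of all genes tested. At adjusted p under 0.05 edgeR called 2 higher and 1 lower, and DESeq2 called 6 higher and 1 lower. Gstm3, a glutathione transferase, was at 106, 90.7 and 69.4 in L-RalyKO livers and at 43.0, 37.2 and 36.0 in controls. Its log2 fold change was 1.16 (limma adjusted p = 0.00312), and it was called under 16 of 16 alternatives. The cytochromes Cyp1a2 and Cyp27a1 rose by 0.48 and 0.33 on the log2 scale (limma adjusted p = 0.0441 and 0.019), called under 8 and 12 of 16 alternatives, and Cyp2c37 fell by 0.34 (limma adjusted p = 0.041), called under 9. Cyp2e1, the abundant pericentral cytochrome, was at 9898, 9708 and 9208 in L-RalyKO livers and at 9347, 8781 and 8298 in controls and did not pass the test (limma adjusted p = 0.446).

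Of 25 periportal genes, 2 rose and 0 fell by limma, with a median log2 fold change of 0.20. An unadjusted p under 0.05 by limma was found for 12 higher and 1 lower, against 11.8% and 10.9% of all genes tested. At adjusted p under 0.05 edgeR called 1 higher and 0 lower and DESeq2 called 6 higher and 1 lower. Pck1, which commits oxaloacetate to glucose synthesis, was at 5401, 5327 and 5616 in L-RalyKO livers and at 2993, 2937 and 3625 in controls. The rise of 0.78 on the log2 scale (limma adjusted p = 0.00312) was called under 16 of 16 alternatives. Slc7a2, a transporter of cationic amino acids, rose by 0.50 (limma adjusted p = 0.037), called under 8 of 16. Around Glul, Oat and Rhbg, 0 of 16 tested genes of glutamine and ammonia metabolism passed the test by limma, while edgeR called 1 higher and DESeq2 called 2. By limma 6 were higher and 0 lower at an unadjusted p under 0.05, against 11.8% and 10.9% of all genes tested. In 7 of the 16 all L-RalyKO livers lay above all controls, where 14.4% of all genes tested did so.

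The samples were liver by their markers, with a summed value of 6 hepatocyte markers of 91800 to 92800 in L-RalyKO livers and 82600 to 92200 in controls. One of these markers, the nuclear receptor Hnf4a, rose by 0.55 on the log2 scale (limma adjusted p = 0.0155), called under 13 of 16 alternatives. No tested marker of endothelium, Kupffer cells, stellate cells, bile duct, lymphocytes, red cells or pancreas passed the test by limma or edgeR, and DESeq2 called Col1a2 of the stellate list and Sox9 of the bile duct list higher. An unadjusted p under 0.05 by limma was found for 2 of 12 endothelial, 2 of 9 stellate and 1 of 3 bile duct markers. Over all genes tested the share was 22.7%. Of the 2 adipocyte markers tested, Cfd was lower in L-RalyKO (log2 fold change -2.10, limma adjusted p = 0.0318, not called by edgeR), and the sum of the 6 markers listed was 0.132 to 1.19 in L-RalyKO livers and 3.33 to 27.2 in controls, highest in control 1. The defining marker Adipoq was at most 0.119 in any liver. The part of these differences in the target genes was not tested.

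**Figure D4:**
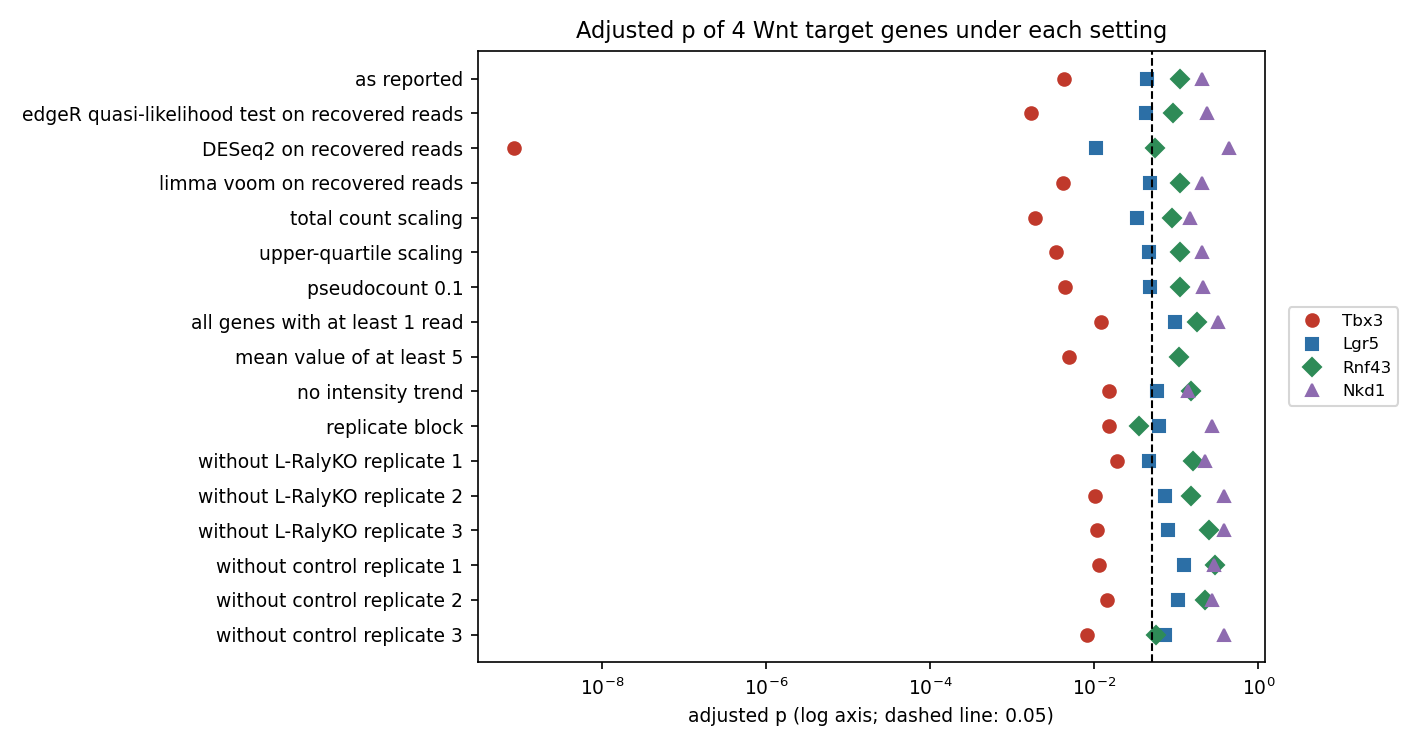
Adjusted p, on a log axis, of Tbx3, Lgr5, Rnf43 and Nkd1 as reported and under each alternative setting, with a dashed line at 0.05. Tbx3 lies below the line in every setting, from 8.35e-10 to 0.0192, and Lgr5 lies on both sides of it, from 0.0105 to 0.123. Rnf43 lies below it only with a replicate block (0.0356) and reaches 0.293, and Nkd1 lies above it wherever it was tested.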

How the data were processed

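The RNA used here, from 6 mouse livers, was sequenced as paired reads from a stranded kit. Per the study's methods, reads were aligned to mm9 with TopHat and quantified with Cufflinks 2.0.2 on an Ensembl annotation, and FPKM values were compared. The deposited values are instead a signal of another kind, read counts per gene scaled to CPM with a between-library factor by the authors. Whole reads were recovered for 100% of values, within a tolerance that is not stated here. The implied factors equal the TMM factors of edgeR in the digits kept. The counter behind them was not given in the sources used here. The unit was judged from the values, so the test for normalized values was kept as planned.

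Symbols with a mean value of at least 1 were log2 transformed after adding a pseudocount of 1 and fitted in limma 3.58.1 under R 4.3.3, letting the prior variance follow mean expression, with Benjamini-Hochberg adjustment over 11580 symbols. This called 389 higher and 369 lower in L-RalyKO. With total count scaling the split was 324 higher and 469 lower. A fold change on this scale understates that of low genes. As alternatives, edgeR 4.0.16 on the recovered reads called 392 higher and 391 lower, and DESeq2 1.42.0, limma voom, other scalings, pseudocounts and filters, a replicate block and leaving out each liver were run. Exact permutation tests used the 20 assignments of 6 livers. Scripts were tested on simulated data. No pair of replicates agreed within counting error (chi-square divided by its degrees of freedom, 12.6 to 84.3). Levels per kilobase used the union of exons in GENCODE vM1 on NCBIM37, and promoters came from a RefSeq table on GRCm38.p6.

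The 10 target genes, the gene lists and the marker lists were chosen with earlier results of these data known. Genes named are the 10 targets, Raly, up to 4 called genes per list with no overlap between groups, Ctnnb1, Tcf7l2, Apc, Lgr4, Rspo3, Wnt2 and Wnt9b, and the 5 genes most like Glul and like Axin2. Cyp2e1, Notum, Sp5, Hnf4a, Col1a2, Sox9, Cfd and Adipoq were named after their values were seen.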

Additional observations from a re-analysis of the deposited data

How the results depend on the processing

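Of the 10 targets, 2 were called lower, and this became 1 with all genes of at least 1 read, with a mean value of at least 5 (where Lgr5 and Nkd1 were not tested) and without the intensity trend, and 1 to 2 when each liver was left out. No target was called higher under any setting run. Of the listed pathway and zonation genes, the 6 higher became 16 with DESeq2 and 3 to 17 with each liver left out. The 4 lower became 2 with all genes of at least 1 read and 6 with total count scaling. With each liver left out the 4 became 2 to 4. Over all genes, 389 higher and 369 lower became 254 and 230 with all genes of at least 1 read. With DESeq2 they became 538 and 546, and with each liver left out 168 to 454 and 164 to 359. The cause was not tested. Log2 fold changes near 0 changed sign for Znrf3 (0.001 with upper-quartile scaling, -0.0335 to 0.0247 with each liver left out) and for Ctnnb1 (-0.0094 with total count scaling). With each liver left out they also did so for Oat (-0.0511 to 0.17), Lect2 (-0.0357 to 0.11), Rhbg (-0.36 to 0.14) and Wnt2 (-0.18 to 0.078).

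Same-numbered replicates of the 2 groups correlated at 0.0664, -0.0238 and 0.0196 in their deviations from the group means. Values this near 0 show no deviation shared over all genes. They cannot tell whether same-numbered livers were handled together, and the main fit took the livers as unpaired. With a replicate block, 2 targets were called lower, Tbx3 (adjusted p = 0.0153) and Rnf43 (0.0356), Lgr5 was at 0.0613, and 10 listed genes were higher. Counting error weighs on genes with few reads, and Lgr5 and Nkd1 had 99 to 208 and 130 to 186 reads per liver.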

Other observations

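Likeness between genes was described by Pearson's r over the 6 livers on log2(value + 1), with no test. Because the livers share groups, genes that differ between groups correlate with each other for that alone, positively or negatively. The 5 tested genes most like Glul were Inca1 (r = 0.987), Eltd1 (0.984), Srgn (0.980), Rapgef1 (0.977) and Mrgbp (0.977). Those most like Axin2 were D8Ertd738e (0.988), Trmt10b (0.986), Cdc45 (0.976), Rpl27a (0.967) and Alpl (0.967). For Tbx3 and Lgr5, chosen after their values were seen, the gene with the highest r was the iron exporter Slc40a1 (0.996) and the mitochondrial carrier Slc25a47 (0.995).

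Among the targets themselves, Tbx3 varied most closely with Nkd1 (r = 0.906 over 6 livers), and Glul with Lgr5 (0.902). Axin2 ran opposite to Nkd1 (-0.772) and to Tbx3 (-0.752).

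As a description chosen after the values were seen, and with no test, Rnf43 over Znrf3 within a liver was 1.37, 1.44 and 1.19 in L-RalyKO livers and 1.88, 1.64 and 1.48 in controls. Lgr5 over Lgr4 was 0.0638, 0.0447 and 0.0625 in L-RalyKO livers and 0.118, 0.115 and 0.0924 in controls. The second ratio could not overlap between groups, since Lgr5 was lower and Lgr4 higher in every L-RalyKO liver.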
